A study of Mus musculus with 10 samples.

Results

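The genes described here encode receptors for acetylcholine: the 5 muscarinic receptors Chrm1, Chrm2, Chrm3, Chrm4 and Chrm5, and the neuronal nicotinic subunits Chrna4, Chrna5, Chrna7 and Chrnb2. They were taken by symbol from a table of 27343 genes, and all 9 had a row in it. Of the 9, 7 had enough counts to be tested among 15938 genes, while Chrm3 and Chrna5 did not. All mice were wild-type C57BL/6J males aged 2 months, and the tissue was whole hippocampus. In the Visudyne group (libraries 1 to 5) verteporfin, a photosensitizer, was injected into the cisterna magna. In the vehicle group (libraries 6 to 10) vehicle was injected instead. The protocol adds red light of 689 nm applied above the skull, a repeat of the procedure after 2 weeks, the Morris water maze 2 weeks after the last procedure, and dissection 3 days later. The purpose was to ablate meningeal lymphatic vessels. Both groups performed the maze, a spatial learning task, so no library shows the hippocampus without it. No gene measured here reports on the vessels themselves.

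Acetylcholine reaches the hippocampus mainly through axons of basal forebrain neurons, whose cell bodies lie outside the dissected tissue. Muscarinic receptors are G protein-coupled: those encoded by Chrm1, Chrm3 and Chrm5 act through Gq, which activates phospholipase C, and those encoded by Chrm2 and Chrm4 act through Gi/o, which inhibits adenylyl cyclase. Nicotinic receptors are ion channels built from several subunits. The Chrna7 subunit forms channels of its own with high calcium permeability, whereas Chrna4 and Chrnb2 subunits combine into the main high-affinity nicotine receptor of the brain, to which Chrna5 can be added as an accessory subunit.

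The libraries held 24752362 to 41073906 counts. The slope of a library's log2 levels on the GC content of transcripts differed between the groups. It lay between -0.536 and 0.00794 per 10% GC in the Visudyne libraries and between -0.0203 and 0.405 in the vehicle libraries (exact two-sided permutation test, p = 0.016, Benjamini-Hochberg adjusted over 3 library measures 0.048). The share of counts on the mitochondrial ribosomal RNA mt-Rnr2 was 33.6% to 39.7% against 32.2% to 35.7% (exact permutation p = 0.032, adjusted 0.048). Choroid plexus markers summed to 447.6 CPM in Visudyne 3 and 317.1 CPM in Visudyne 5, against 23.5 to 35.6 CPM in the other 8 libraries. CPM are counts relative to a library size adjusted by TMM. The hippocampal markers were present in every library, with dentate granule cell markers summing to 250.8 to 505.8 CPM in the Visudyne group and 352.6 to 466.8 CPM in the vehicle group. Striatal markers, which would come with Chrm4-rich tissue, summed to 14.3 to 28.4 CPM in the Visudyne group and 14.3 to 28.0 CPM in the vehicle group. Medial habenula markers, which include the nicotinic subunits Chrna3 and Chrnb4, summed to 44.2 to 64.2 CPM and 46.4 to 61.1 CPM. Nearly all of that sum was Nr4a2, with means of 47.0 and 49.6 CPM. Chrna3 was at 1.77 and 1.59 CPM, and Chrnb4 at 0.262 and 0.240 CPM. Thalamus markers summed to 42.1 to 54.9 CPM in the Visudyne group and 45.9 to 76.3 CPM in the vehicle group. Most of that sum was Slc17a6, with means of 34.8 and 44.6 CPM. Of the 6 markers, 5 were tested, with 0 called and a median log2 fold change of -0.36. Tcf7l2 had a positive value (0.23) and the other tested ones had negative values. The sixth, Gbx2, had 4 counts in all libraries together. Oligodendrocyte markers summed to 2074 to 2462 CPM and 2167 to 2898 CPM, and 3 of the 5 tested (Mbp, Mog and Cnp) were called lower in the Visudyne group by the test used for the receptor genes. The part of these cells in the receptor levels was not tested.

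The receptor transcripts differ in base composition, and members of the same family can encode nearly the same short stretch of protein with different codons. Of 120 bases in each of Chrm2 and Chrm4, chosen as the coding stretch of closest protein match, 39 of 40 encoded residues are identical, and 22 bases differ. Both encode Gi/o-coupled receptors. G and C are in capitals, 47.5% of the Chrm2 stretch (exon 3, chr6:36523468-36523587, plus strand) and 57.5% of the Chrm4 stretch (exon 1, chr2:91927531-91927650, plus strand), read from GENCODE M21 transcripts on GRCm38.
Chrm2: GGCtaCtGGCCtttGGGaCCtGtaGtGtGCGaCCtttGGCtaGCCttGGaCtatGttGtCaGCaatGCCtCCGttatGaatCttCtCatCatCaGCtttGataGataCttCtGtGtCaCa
Chrm4: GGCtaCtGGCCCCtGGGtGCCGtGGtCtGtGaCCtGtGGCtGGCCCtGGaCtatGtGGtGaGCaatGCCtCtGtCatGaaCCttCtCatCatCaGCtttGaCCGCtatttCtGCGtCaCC

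The corresponding stretches of the nicotinic pair Chrna7 (exon 7, chr7:63106062-63106181, minus strand) and Chrna4 (exon 5, chr2:181029182-181029301, minus strand) share 23 of 40 residues and differ at 43 bases. GC content is 46.7% in Chrna7 and 51.7% in Chrna4.
Chrna7: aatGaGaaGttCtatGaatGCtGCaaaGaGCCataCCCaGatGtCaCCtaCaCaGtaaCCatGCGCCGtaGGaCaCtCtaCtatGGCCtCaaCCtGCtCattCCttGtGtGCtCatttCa
Chrna4: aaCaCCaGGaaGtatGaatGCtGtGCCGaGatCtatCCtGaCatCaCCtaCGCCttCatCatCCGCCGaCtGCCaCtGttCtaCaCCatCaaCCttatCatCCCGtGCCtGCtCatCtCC

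Over the whole coding sequence, the GC content at the last position of codons was 59.9% in Chrm2 and 72.7% in Chrm4, and 66.9% in Chrna7 and 73.6% in Chrna4. Over the annotated transcripts, GC content was 42.1% in Chrm2, 46.4% in Chrna5, 47.8% in Chrna7, 49.7% in Chrm3, 51.7% in Chrm5, 53.4% in Chrnb2, 54.3% in Chrm1, 56.1% in Chrna4 and 57.0% in Chrm4. These values stand beside each comparison below because the libraries' GC slopes differed.

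Per kilobase of annotated exon, Chrm1 had the highest level of the 9 genes in both groups. In the vehicle group its level was 7.52 ± 0.939 CPM per kilobase (SD, n = 5), above all vehicle values of the next gene, Chrm2, at 3.06 ± 0.487. Chrna7 followed at 2.90 ± 0.151, and the ranges of Chrm2 and Chrna7 overlapped. Chrna4, at 1.22 ± 0.242, lay below every vehicle value of Chrna7 and above every one of Chrm5, at 0.663 ± 0.0776. Chrm5, Chrm4 (0.625 ± 0.224) and Chrnb2 (0.296 ± 0.203) each overlapped with the next in the order. Chrm3 and Chrna5 were last. The order was the same in the Visudyne group down to Chrnb2, at 6.42, 3.36, 3.03, 0.882, 0.77, 0.333 and 0.169 CPM per kilobase, but there the ranges of Chrna4 and Chrm5 also overlapped. The annotated models of Chrm4 and Chrm5 hold coding sequence alone (1440 and 1599 bases), so reads on their untranslated parts would not be counted under them. The place of Chrna4 depends on the length used: by median transcript length it was at 8.62 CPM per kilobase in the vehicle group, above Chrm2 (5.82) and Chrna7 (5.33) and below Chrm1 (11.7). That median, over 5 annotated transcripts, is 712 bases. It is shorter than the Chrna4 coding sequence of 1923 bases, so it is not the length of a full receptor transcript.

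**Figure D1:**
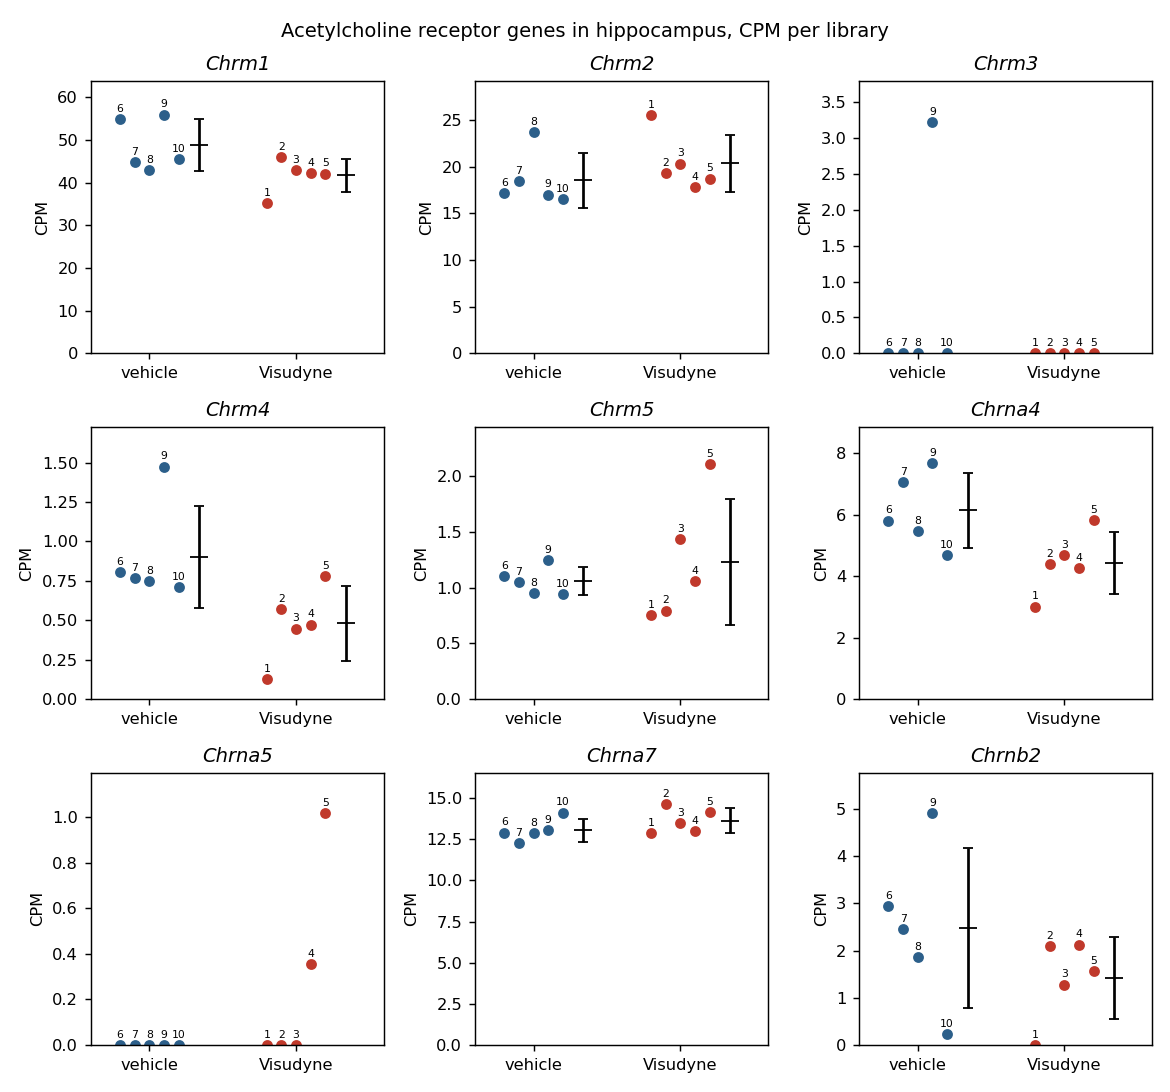
Level of each receptor gene in CPM (linear axis from 0) in every library, numbered by replicate, with the vehicle group in blue and the Visudyne group in red. Bars give mean ± SD of 5 libraries and are left out for Chrm3 and Chrna5, which have counts in 1 and 2 libraries; the groups overlap for Chrm1, Chrm2, Chrm4, Chrm5, Chrna4, Chrna7 and Chrnb2.

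None of the 7 tested receptor genes passed the test between Visudyne and vehicle. Chrm1, Chrm4, Chrna4 and Chrnb2 had lower means in the Visudyne group, and each was below the vehicle mean in 5 of 5 Visudyne libraries. Vehicle 8 and vehicle 10 were also below that mean for each of these genes. So was vehicle 7 for Chrm1, Chrm4 and Chrnb2, and vehicle 6 for Chrm4 and Chrna4. How many of all tested genes lay this way was not counted. Chrm2, Chrm5 and Chrna7 had higher means, and for Chrm2 and Chrna7 that direction turned when total counts replaced TMM library sizes. The test was the quasi-likelihood test of edgeR, and a gene counted as called where its p, adjusted by Benjamini-Hochberg over all tested genes, was under 0.05. By that rule 20.5% of all tested genes were called, 8.98% higher and 11.5% lower, against 0 of 7 receptor genes. With total counts the split of calls over the whole table was 196 higher and 3902 lower, in place of 1432 and 1829. Chrm1, Chrm4 and Chrna4 had an unadjusted p under 0.05, as did 39.8% of all tested genes. DESeq2 called 1 receptor gene, Chrna4, and limma-voom called 0. The CPM of the groups did not overlap for 12.5% of all tested genes and for 0 of the 7 receptor genes. In whole tissue, fewer cells of a type and less RNA per cell cannot be told apart.

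Chrm1 (ENSMUSG00000032773, GRCm38 chromosome 19, 8663789 to 8683587) encodes the Gq-coupled receptor of hippocampal pyramidal neurons. Its level was 35.2, 46.1, 42.9, 42.2 and 42.1 CPM in Visudyne 1 to 5, and 54.8, 44.9, 42.9, 55.9 and 45.5 CPM in vehicle 6 to 10. Vehicle 6 and 9 stood above all other libraries and Visudyne 1 below them, while the remaining 7 lay close together in both groups. The means were 41.7 ± 3.98 and 48.8 ± 6.09 CPM (SD, n = 5 each), and the log2 fold change was -0.23 (SE 0.092, 95% interval -0.43 to -0.027, edgeR adjusted p = 0.089). With total counts as library sizes Chrm1 passed the test, at -0.43 (edgeR adjusted p = 0.029), a scaling that moves the median of all genes from 0.01 to -0.19. That scaling called 25.7% of all tested genes, against 20.5%.

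Chrm5 (ENSMUSG00000074939, chromosome 2, 112479171 to 112480769), another Gq-coupled receptor, best known from midbrain dopamine neurons, was measured at 0.753, 0.795, 1.44, 1.06 and 2.11 CPM in Visudyne 1 to 5. The vehicle libraries were at 1.10, 1.05, 0.951, 1.25 and 0.944 CPM. The vehicle values thus lay inside the Visudyne range, whose lowest values were in Visudyne 1 and 2 and whose highest was in Visudyne 5. The log2 fold change was 0.22 (SE 0.27, 95% interval -0.37 to 0.81, edgeR adjusted p = 0.56). Without Visudyne 5 it was -0.078, and without Visudyne 3 and 5, the libraries with high choroid plexus markers, it was -0.28. The part of choroid plexus RNA in the Chrm5 level was not tested.

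Chrm3 (ENSMUSG00000046159, chromosome 13, 9875486 to 10360847), the third Gq-coupled receptor, was at 0 in 9 libraries and at 3.23 CPM, or 127 counts, in vehicle 9. A count of 0 allows a level of up to 0.118 CPM in the shallowest of these libraries (3 counts, counting error only), so vehicle 9 stood far above what the other libraries could have held unseen. Such a pattern was rare in this table. Of 11431 genes with at least 100 counts in some library, 80 (0.7%) were at 0 in another, and Chrm3 and Chrnb2 were among the 80. For that reason the zeros of Chrm3 are not read as absence of its transcript.

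Chrm2 (ENSMUSG00000045613, chromosome 6, 36388084 to 36528414) encodes the Gi/o-coupled receptor that serves as an autoreceptor on cholinergic axons and is also found on interneurons. It was at 25.5, 19.3, 20.3, 17.8 and 18.7 CPM in Visudyne 1 to 5, and at 17.1, 18.4, 23.7, 17.0 and 16.5 CPM in vehicle 6 to 10. Visudyne 1 and vehicle 8 were the high libraries, 1 in each group, and the other 8 lay between 16.5 and 20.3 CPM. The summed thalamus markers, made up mostly of Slc17a6, were highest in the same libraries of each group. They were at 54.9 CPM in Visudyne 1 (42.1 to 45.1 CPM in Visudyne 2 to 5) and 76.3 CPM in vehicle 8 (45.9 to 62.4 CPM in the other vehicle libraries). The oligodendrocyte markers were highest there too, at 2462 and 2898 CPM. The part of either in the Chrm2 level was not tested. The means were 20.3 ± 3.05 and 18.5 ± 2.95 CPM, with a log2 fold change of 0.13 (SE 0.12, 95% interval -0.13 to 0.39, edgeR adjusted p = 0.43).

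Chrm4 (ENSMUSG00000040495, chromosome 2, 91927249 to 91928688), the other Gi/o-coupled receptor and the one most abundant in striatum, rested on 4 to 58 counts per library. Its level was 0.125, 0.572, 0.447, 0.472 and 0.782 CPM in Visudyne 1 to 5, and 0.804, 0.769, 0.747, 1.47 and 0.708 CPM in vehicle 6 to 10. Visudyne 5 was the only Visudyne library inside the vehicle range. Visudyne 1 was the lowest and vehicle 9 the highest of all. The log2 fold change was -0.90 (SE 0.36, 95% interval -1.69 to -0.11, edgeR adjusted p = 0.089). Without Visudyne 5 the gene passed the test, at -1.16 (edgeR adjusted p = 0.037), and without Visudyne 1 and vehicle 9 together the value was -0.41. Leaving out Visudyne 5 also raised the share called among all tested genes from 20.5% to 31.5%.

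Chrna7 (ENSMUSG00000030525, chromosome 7, 63098692 to 63212569), the subunit of the calcium-permeable nicotinic receptor, varied least. It was at 12.9, 14.7, 13.5, 13.0 and 14.2 CPM in Visudyne 1 to 5, and at 12.9, 12.3, 12.9, 13.0 and 14.1 CPM in vehicle 6 to 10. No library stood apart, and the groups overlapped over most of their range. The means were 13.6 ± 0.76 and 13.0 ± 0.678 CPM. The log2 fold change was 0.065 (SE 0.067, edgeR adjusted p = 0.49), and its 95% interval of -0.081 to 0.21 was the narrowest of the 7.

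Chrna4 (ENSMUSG00000027577, chromosome 2, 181018380 to 181043546) encodes the ligand-binding subunit of the high-affinity nicotine receptor. It was at 3.01, 4.39, 4.69, 4.25 and 5.81 CPM in Visudyne 1 to 5, and at 5.81, 7.07, 5.45, 7.68 and 4.68 CPM in vehicle 6 to 10. Visudyne 5 reached the level of vehicle 6, and vehicle 8 and 10 fell within the Visudyne range. In vehicle 8 and Visudyne 1, where the summed thalamus markers were highest in each group, Chrna4 was at 5.45 and 3.01 CPM. The part of thalamus RNA in the Chrna4 level was not tested. The means were 4.43 ± 1.0 and 6.14 ± 1.22 CPM, and the log2 fold change was -0.47 (SE 0.18, 95% interval -0.85 to -0.089, edgeR adjusted p = 0.070). Of the receptor genes it was nearest to the threshold, and several alternatives put it past it while others did not. Its value was -0.46 with DESeq2 (adjusted p = 0.038) and -0.66 with total counts (edgeR adjusted p = 0.042). It was -0.60 without Visudyne 5 (edgeR adjusted p = 0.024) and -0.56 without vehicle 10 (edgeR adjusted p = 0.042). Without Visudyne 3 and 5 it was -0.66 (edgeR adjusted p = 0.041). These settings called 28.1%, 25.7%, 31.5%, 22.6% and 18.4% of all tested genes, in that order, against 20.5%. With any other single library left out it did not pass, at edgeR adjusted p from 0.075 (without vehicle 8) to 0.16 (without vehicle 9). Without Visudyne 1 and vehicle 9 it was -0.27. With each library's GC slope in the model it was 0.12, and with a surrogate variable -0.081.

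Chrnb2 (ENSMUSG00000027950, chromosome 3, 89746195 to 89764632), the partner of Chrna4 in that receptor, had 0 to 193 counts per library. It was at 0, 2.10, 1.28, 2.13 and 1.56 CPM in Visudyne 1 to 5, and at 2.94, 2.45, 1.86, 4.91 and 0.236 CPM in vehicle 6 to 10. Visudyne 1 and vehicle 10 were low and vehicle 9 was high, so the spread within each group exceeded the difference between them. The log2 fold change was -0.82 (SE 0.68, 95% interval -2.30 to 0.65, edgeR adjusted p = 0.38). The exons of Chrnb2 overlap those of the RNA-editing gene Adar on the opposite strand over 1365 bases (16.29% of its exon length). Of the 8347 stretches of 31 bases in its transcripts, 1256 (15%) also lie in another gene when read on the opposite strand. The kit was stranded, but the strand setting of the counting is not given in the sources used here, so the level of Chrnb2 is uncertain. Adar, named here after its values were seen, was lower in the Visudyne group, with a log2 fold change of -0.47 (edgeR adjusted p = 0.036).

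Chrna5 (ENSMUSG00000035594, chromosome 9, 54980880 to 55007779), the accessory subunit, was at 0 in all vehicle libraries and in Visudyne 1, 2 and 3. It had 12 counts (0.354 CPM) in Visudyne 4 and 39 counts (1.02 CPM) in Visudyne 5. Counts in 2 of 10 libraries do not allow a comparison, and neither Chrm3 nor Chrna5 was tested.

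**Figure D2:**
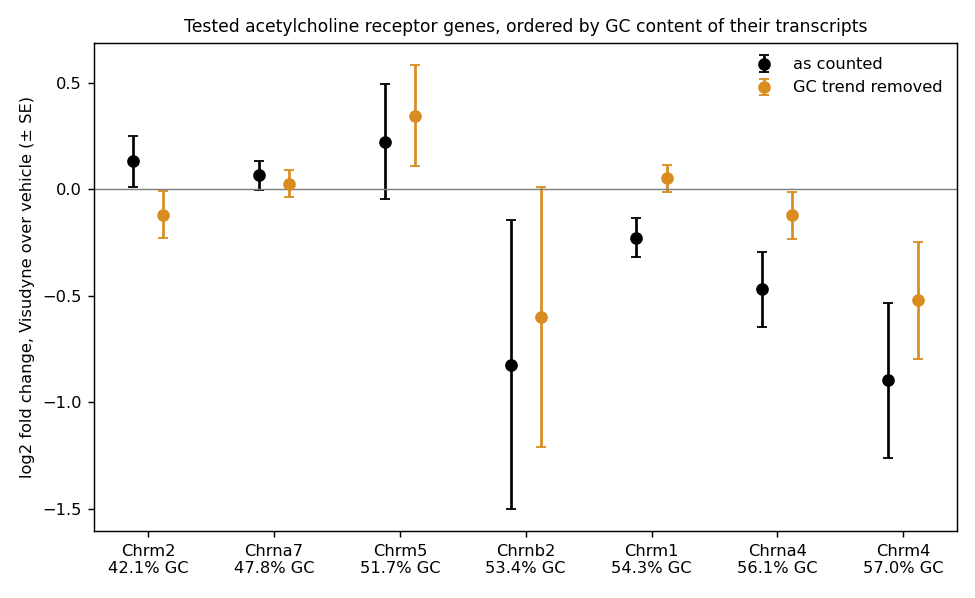
Log2 fold change of the 7 tested receptor genes, Visudyne over vehicle, ± SE, as fitted and with each library's GC trend removed. Chrm1, Chrm4, Chrna4 and Chrnb2 lie below 0 as fitted. With the trend removed, Chrm1 lies above 0 by less than its SE, and Chrm4, Chrna4 and Chrnb2 lie nearer to 0. Chrm5 then lies farther above 0, and Chrm2 lies below it.

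The tested receptor genes with lower means in the Visudyne group were the GC-richer ones. The 4 tested genes with more than 53% GC (Chrnb2, Chrm1, Chrna4, Chrm4) had lower means in the Visudyne group, and the 3 with less than 52% (Chrm2, Chrna7, Chrm5) had higher ones. These bounds were placed between the receptor genes after their values were seen. Over all tested genes the median log2 fold change went from 0.31 in the decile of genes with the lowest GC content to -0.48 in the decile with the highest. Chrm5 stood apart from this order: in its decile (50.9% to 52.8% GC) the median was -0.13, with 29 genes called higher and 269 lower. In the lowest decile 486 genes were called higher and 4 lower, and in the highest decile 13 higher and 441 lower. In single libraries, Chrm1, Chrm4, Chrna4 and Chrnb2 were all lowest in Visudyne 1, the library with the lowest GC slope, and so was Chrm5. The first 4 of these were highest in vehicle 9, the library with the highest slope, which was also the only library with counts for Chrm3.

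**Figure D3:**
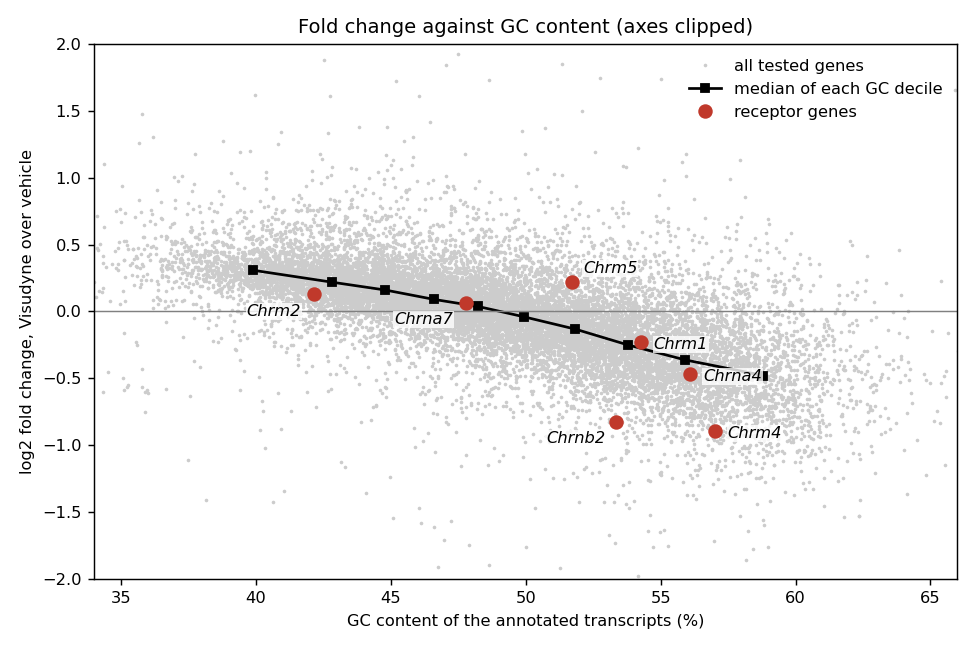
Log2 fold change (Visudyne over vehicle) against the GC content of the annotated transcripts in percent, for all tested genes with a known GC content (grey, axes clipped), the median of each decile of genes by GC content (black) and the 7 tested receptor genes (red). The black line goes from 0.31 to -0.48, with Chrm2 and Chrna7 on the left above 0 and Chrm1, Chrna4 and Chrm4 on the right below it.

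When a smooth trend on GC content was removed from each library, the fold changes of Chrm1 and Chrm2 changed sign. Chrm1 was then at 0.050 (SE 0.065, edgeR adjusted p = 0.69) and Chrm2 at -0.12 (SE 0.11, edgeR adjusted p = 0.55). Chrna4 went from -0.47 to -0.12 (SE 0.11, edgeR adjusted p = 0.55), and Chrm4 from -0.90 to -0.52 (SE 0.27, edgeR adjusted p = 0.27). The values of Chrnb2 (-0.60), Chrm5 (0.35) and Chrna7 (0.026) kept their sign. In this fit 3.17% of all tested genes were called and again 0 of the 7 receptor genes. None of the 7 had an unadjusted p under 0.05, against 23.7% of all tested genes. Chrm1 levels of the 10 libraries, centred on their mean on the log2 scale, spanned -0.35 to 0.32 before and -0.16 to 0.14 after the removal. Since the GC slope differs between the groups, its part and that of the treatment cannot be told apart by this design. Without Visudyne 1 and vehicle 9, which had the extreme slopes, the log2 fold changes were -0.12 for Chrm1, 0.0035 for Chrm2, -0.41 for Chrm4 and 0.42 for Chrm5. Those of Chrna4, Chrna7 and Chrnb2 were -0.27, 0.084 and -0.12. In that fit none of the 7 had an unadjusted p under 0.05, against 27.2% of all tested genes.

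Ratios between receptor genes of the same family overlapped between the groups as well. Chrm1 over Chrm2, in CPM, was 2.10 ± 0.418 in the Visudyne group (1.38 to 2.39) and 2.70 ± 0.603 in the vehicle group (1.81 to 3.29). Chrna4 over Chrna7 was 0.324 ± 0.065 (0.234 to 0.411) and 0.474 ± 0.109 (0.331 to 0.589). Both ratios set a GC-rich gene over a GC-poorer one.

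The spread between libraries of a group set how small a difference could be seen for each gene. Chrna7 had a coefficient of variation of 5.58% in the Visudyne group and 5.2% in the vehicle group, against 4.69% and 4.53% from counting error alone. For Chrm1 the values were 9.55% and 12.5%, against 2.68% and 2.33%, so most of its spread was not counting error. Chrnb2 spread most, at 61.5% and 68.5%, against 14.5% and 10.1%. Chrm5 showed different spreads in the 2 groups, 45.6% in Visudyne and 11.7% in vehicle, against 15.4% and 15.8% from counting. That difference in spread was not tested.

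**Figure D4:**
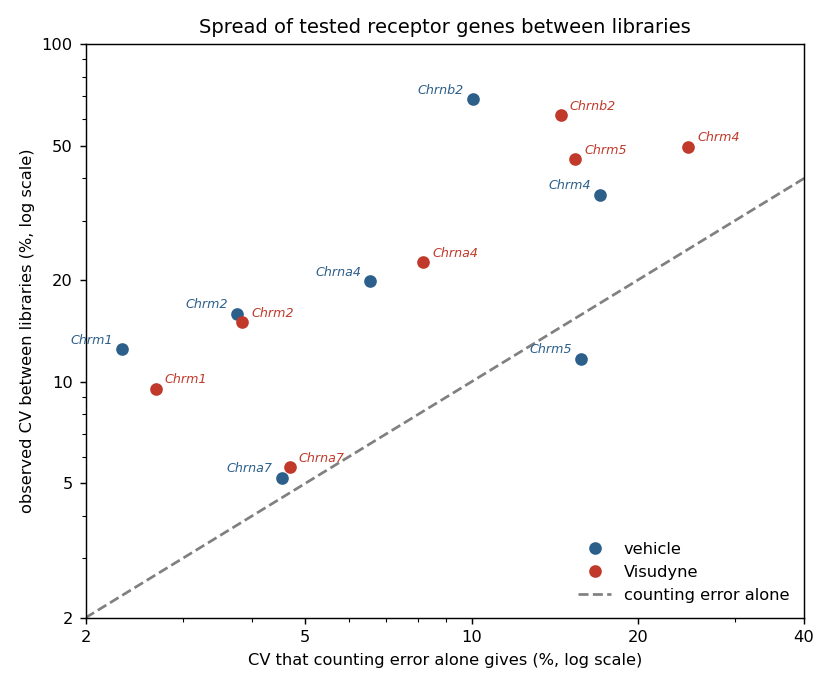
Observed coefficient of variation (CV, percent, log axis) of each tested receptor gene over the 5 libraries of a group, against the CV that counting error alone would give (percent, log axis). Chrna7 lies near the dashed line of equal values in both groups, Chrm5 lies below it in vehicle only, and Chrm1 and Chrnb2 lie far above it.

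Among 51 tested genes that act with these receptors, 5 were called higher and 9 lower in the Visudyne group, against 8.98% higher and 11.5% lower over all tested genes. No other nicotinic subunit was called, and none of the genes for acetylcholine synthesis, transport and breakdown was. The calls lay among chaperones and modulators of nicotinic receptors, the G protein arms, and the receptor kinases and arrestins. None of the 14 calls was left when Visudyne 3, vehicle 6 or vehicle 9 was left out alone, nor when Visudyne 1 and vehicle 9 were left out together. Without Visudyne 1, 2 or 4 or vehicle 7 the number was 6, 6, 5 and 5, and without Visudyne 5 it was 20. With the GC trend removed it was 4 of 51, against 3.17% of all tested genes. With total counts as library sizes the split was 0 higher and 16 lower: Gnai1, Kcnj3, Tmem35a and Kcnq5 kept a positive value that did not pass, and Grk3 turned to -0.0034.

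Of 12 other nicotinic subunits, 6 could be tested, with 0 called and a median log2 fold change of 0.16, against 0.01 over all tested genes. Chrna3, Chrnb3 and Chrnb4, subunits typical of habenula and autonomic neurons, had log2 fold changes of 0.15, 0.17 and 0.18, and Chrna1, the muscle subunit, 0.21; with total counts those of Chrna3, Chrnb3 and Chrnb4 turned negative. All were low, with Chrnb4 at 0.262 CPM in the Visudyne group and 0.240 CPM in the vehicle group.

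Of 8 genes of acetylcholine metabolism, 4 were tested, with 0 called and a median of 0.089. Ache, the esterase that ends the signal at synapses, was at 2.60 CPM in the Visudyne group and 4.08 CPM in the vehicle group (log2 fold change -0.65, edgeR adjusted p = 0.054). It was called lower with DESeq2, limma-voom, total counts or a filter at a mean of 1 CPM, and without Visudyne 5 or vehicle 10. These settings called 28.1%, 21.5%, 25.7%, 28.9%, 31.5% and 22.6% of all tested genes, in that order, against 20.5%. With the GC trend removed Ache was at -0.20 (edgeR adjusted p = 0.37). Bche, the second esterase, was at 15.3 and 13.2 CPM (0.22). Slc5a7, the high-affinity choline transporter of cholinergic terminals, was at 1.34 and 1.15 CPM (0.23), and the broadly expressed transporter Slc44a1 at 108.7 and 111.5 CPM (-0.037). Chat, the synthesizing enzyme, had 18 counts in all libraries together and was not tested. Cholinergic neuron markers summed to 1.42 to 2.48 CPM in the Visudyne group and 1.40 to 2.32 CPM in the vehicle group.

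Of 11 chaperones and Ly6-type modulators of nicotinic receptors, 10 were tested, with 1 called higher and 1 lower and a median of 0.091. That share of called genes was near the 20.5% of all tested genes. Tmem35a, a chaperone needed for assembly of the Chrna7 receptor, was higher, at 52.6 ± 3.14 against 44.1 ± 2.49 CPM (log2 fold change 0.25, edgeR adjusted p = 0.026). Lynx1, a membrane-anchored protein that dampens nicotinic receptors, was lower, at 70.4 ± 18.6 against 107.9 ± 17.2 CPM (-0.62, edgeR adjusted p = 0.033). Lypd6 and Ric3 were at 0.19 and 0.14, and did not pass. With the GC trend removed, Tmem35a was at 0.17 (edgeR adjusted p = 0.12) and Lynx1 at -0.24 (edgeR adjusted p = 0.081), and neither passed.

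Downstream of the Gq-coupled receptors, 13 genes were tested, with 1 called higher, 2 lower and a median of 0.070, again near the 20.5% called among all tested genes. Gna11, a Gq-family alpha subunit, was lower, with a log2 fold change of -0.57 (edgeR adjusted p = 0.044). Kcnq5, a channel of the potassium M-current that muscarinic receptors close, was higher (0.23, edgeR adjusted p = 0.045). Itpr1, the calcium release channel opened by inositol trisphosphate, had the value -0.57 and did not pass (edgeR adjusted p = 0.0503). With the GC trend removed, 0 of the 13 were called, although Kcnq5 (0.25, edgeR adjusted p = 0.065) and Itpr1 (-0.58, edgeR adjusted p = 0.082) had folds as large as before. Gna11 was then at -0.21 (edgeR adjusted p = 0.16).

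Downstream of the Gi/o-coupled receptors, 12 genes were tested, with 2 called in each direction and a median of -0.18. Over all tested genes 8.98% were called higher and 11.5% lower. The alpha subunit gene Gnai1 was higher (log2 fold change 0.33, edgeR adjusted p = 0.031), as was Kcnj3, a subunit of the potassium channel opened by Gi/o signalling (0.33, edgeR adjusted p = 0.046). The alpha subunit gene Gnao1 was lower (-0.28, edgeR adjusted p = 0.043), as was Rgs7, a regulator that speeds the switching-off of Gi/o (-0.49, edgeR adjusted p = 0.023). With the GC trend removed, Rgs7 was still called lower, at -0.69 (edgeR adjusted p = 0.026), and the adenylyl cyclase gene Adcy5 was called higher, the latter named after its values were seen. In that fit 3.17% of all tested genes were called.

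Among the kinases and arrestins that switch off G protein-coupled receptors, all 6 genes were tested, with 1 called higher, 4 lower and a median of -0.40. The shares over all tested genes were 8.98% higher and 11.5% lower. The 4 lower genes had 53.5% to 56.6% GC, in deciles of GC content where 397 and 458 of 1583 genes were called lower over the whole table. Grk2 was at 18.9 CPM in the Visudyne group and 29.5 CPM in the vehicle group (log2 fold change -0.65, edgeR adjusted p = 0.026), and Arrb2 at 3.51 and 6.05 CPM (-0.78, edgeR adjusted p = 0.032). Grk6 (-0.47, edgeR adjusted p = 0.028) and Arrb1 (-0.32, edgeR adjusted p = 0.026) were lower as well. Grk3, named after its values were seen, was higher (0.20, edgeR adjusted p = 0.043). With the GC trend removed, Grk2 (-0.28, edgeR adjusted p = 0.049) and Grk3 (0.28, edgeR adjusted p = 0.045) were the 2 still called, and the median was -0.10. Of all tested genes 3.17% were called in that fit.

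**Figure D5:**
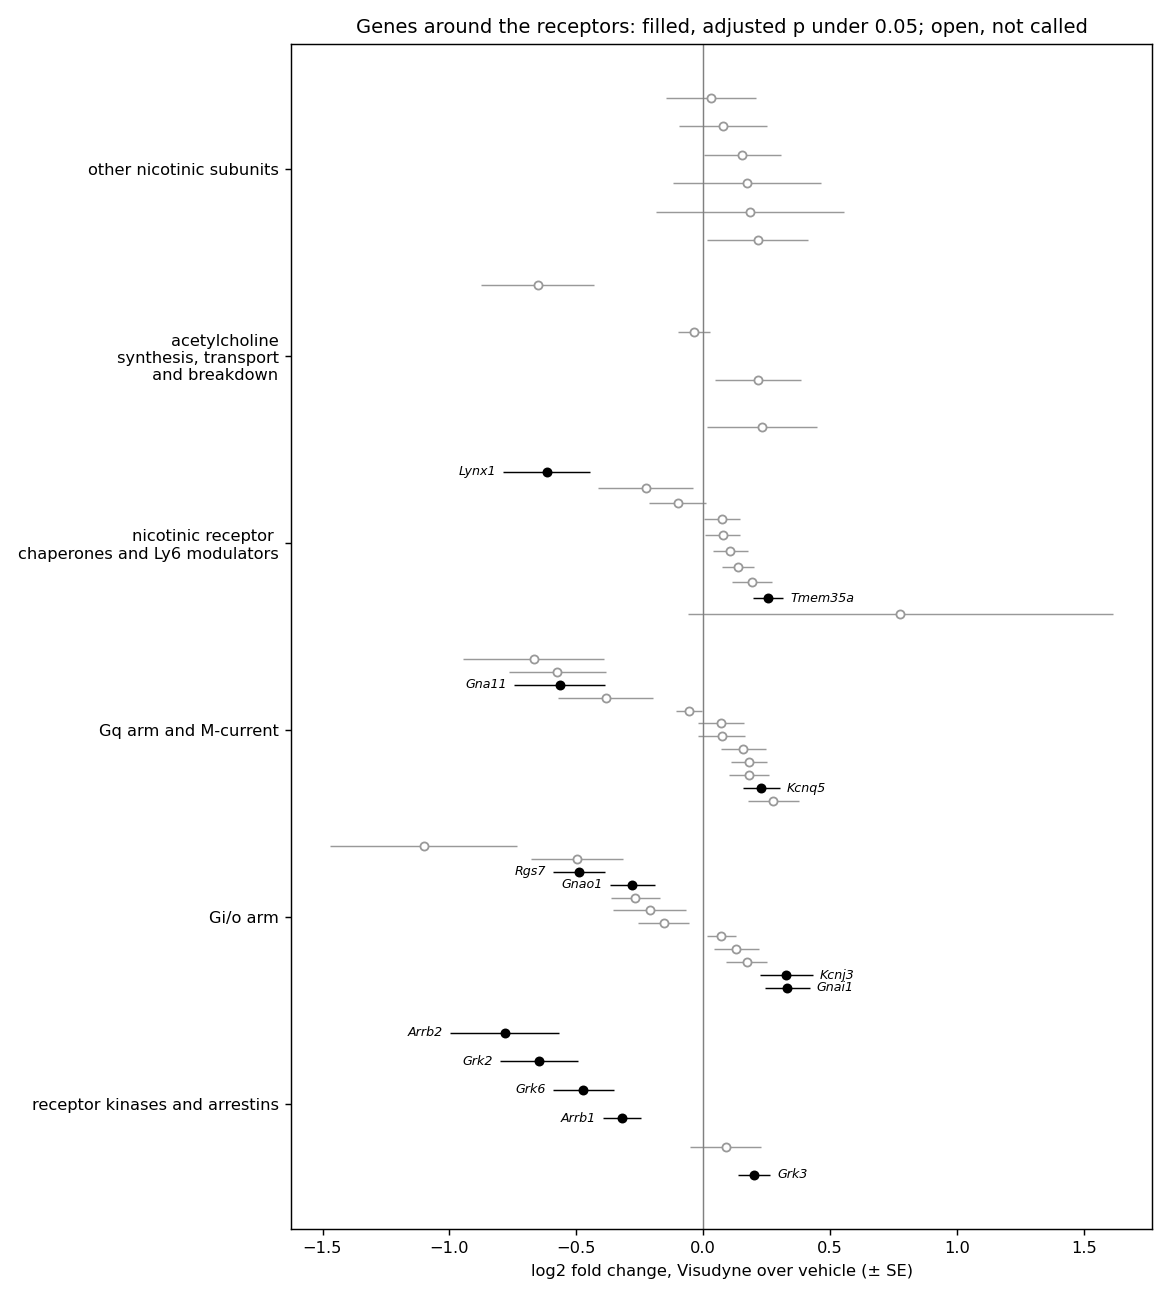
Log2 fold change (Visudyne over vehicle) ± SE of 50 of the 51 tested genes around the receptors, by group of function. Filled points with names are 5 genes called higher and 8 called lower at an edgeR adjusted p under 0.05; no other nicotinic subunit and no gene of acetylcholine metabolism is filled.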

How the data were processed

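Total RNA of 10 hippocampi was extracted with RNeasy and prepared with the stranded TruSeq kit for total RNA (labels' protocols). The authors deposited whole-number values per gene in 1 table. FastQC, Salmon and the build mm10 are named in the submitters' processing notes, so the deposited values were taken as rounded estimated counts. For the annotation, the software versions and the strand setting, nothing was given in the sources used here. That the libraries are separate mice was taken from the labels' numbering, and p-values measure only the spread between these libraries.

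Symbols, positions, exon lengths and GC content came from GENCODE M21 (GRCm38), which matched 27053 of 27343 genes. The whole table was fitted with edgeR 4.0.16 in R 4.3.3 (filterByExpr, TMM, quasi-likelihood test, two-sided, no covariate, Benjamini-Hochberg over 15938 genes). CPM used TMM library sizes. The GC trend was removed with loess offsets per library (span 0.3). Alternatives were other scalings and filters, DESeq2 1.42.0, limma-voom (limma 3.58.1), a surrogate variable (sva 3.50.0), GC terms and leaving out libraries. Pairs of libraries of 1 group differed by more than sampling noise (chi-square per degree of freedom at least 13.4). The test was checked on simulated data.

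The receptor genes and the gene lists were chosen with earlier results of these data known. Named were all 9 receptor genes and, in each list, up to 4 tested genes with the smallest p. One gene that this rule picked is not reported here, and it stayed in every fit and count. Genes most alike in pattern were to be named for called receptor genes only, and no receptor gene was called.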

Additional observations from a re-analysis of the deposited data

Results flagged for a closer look

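In 72 groups of 5 libraries, 4 held a library whose gap to the nearest other was large against the range of its group (Dixon's criterion, which chance meets in about 1 in 20 groups). Chrm2 was at 23.7 CPM in vehicle 8, against 16.5 to 18.4 CPM in the other vehicle libraries. Chrm3 was at 3.23 CPM in vehicle 9 and at 0 in the others. Chrm4 was at 1.47 CPM in vehicle 9, against 0.708 to 0.804 CPM. Bche was at 17.5 CPM in vehicle 7, against 11.7 to 12.4 CPM.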

How the results depend on the processing

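No receptor gene was called higher under any alternative; the number called lower was 2 with total counts, 1 with DESeq2, 1 without Visudyne 3 and 5, and 0 to 2 when single libraries were left out, against 0. With total counts, Chrm2 turned to -0.082 and Chrna7 to -0.14. With the GC trend removed, Chrm1 turned to 0.050 and Chrm2 to -0.12 (0.037 and -0.10 with length also removed). With each library's GC slope in the model, values turned to 0.058 for Chrm1, -0.15 for Chrm2, 0.39 for Chrm4, 0.12 for Chrna4 and 2.13 for Chrnb2, and with a surrogate variable to -0.091 for Chrm2 and 0.75 for Chrnb2. Leaving out single libraries gave -0.078 (without Visudyne 5) to 0.36 (without Visudyne 1) for Chrm5, and it turned to -0.28 without Visudyne 3 and 5. Over the whole table, 1432 genes were called higher and 1829 lower. These became 196 and 3902 with total counts, 234 and 271 with the GC trend removed, 279 and 314 with length also removed, 1 and 0 with a surrogate variable, and 58 and 42 without Visudyne 1 and vehicle 9. With the slope in the model, edgeR called 0 and 0, with 1032 genes at an unadjusted p under 0.05. Without a filter 818 were higher. Leaving out single libraries gave 5 to 2174 higher and 5 to 2873 lower, and any single library other than vehicle 8 or 10 moved the total by over 1.5 times. Of the 51 genes around the receptors, 5 higher and 9 lower became 0 and 16 with total counts, 2 and 2 with the GC trend or the GC and length trend removed, and 0 and 0 with the slope, with the surrogate variable or without Visudyne 1 and vehicle 9. Without a filter 2 were higher, with DESeq2 14 were lower, without Visudyne 3 and 5 3 were higher, and single libraries gave 0 to 6 higher and 0 to 14 lower. By median transcript length, vehicle levels were 11.7 (Chrm1), 5.82 (Chrm2), 8.62 (Chrna4) and 5.33 (Chrna7) CPM per kilobase. The causes were not tested. Most alternatives for genes around the receptors and those leaving out pairs of libraries were chosen after the data were seen. Counting error alone would give the spread of Chrm5 in the vehicle group, and elsewhere the spread of tested receptor genes exceeded it; Chrm3 and Chrna5 had too few counts to test. No paired analysis was possible because the groups share no replicate number.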
